A study of Mus musculus with 8 samples.

Results

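The enzymes that make bile acids from cholesterol were followed in RNA sequencing of whole mouse liver. They are 10 genes, taken by name by a rule that uses no measured value: Cyp7a1, Cyp8b1, Cyp27a1, Cyp7b1, Cyp39a1, Hsd3b7, Akr1d1, Amacr, Slc27a5 and Baat. They are 10 of 17294 features with a value above 0 in at least 1 library, and all 10 passed the filter on low values. The name Baat stands on a pair of rows, of which the row with the higher sum was kept. The study has 8 libraries in 4 groups of 2, called biological replicates by its authors. The groups are wild-type mice left untreated, wild-type mice given LPS, ApoE-Cyp7a1 transgenic mice left untreated and ApoE-Cyp7a1 transgenic mice given LPS. All mice were male C57Bl/6J. LPS is bacterial lipopolysaccharide, an endotoxin, and was injected at 1.5 mg/kg each day for 7 days. The transgene adds Cyp7a1 expression and is described by the submitters as liver specific. The sources used here do not give the species of the added Cyp7a1, the number of transgenic lines, any vehicle injection or the age of the mice. Groups are called WT and TG below, with or without LPS.

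Bile acid synthesis is a defining task of the hepatocyte, and it starts along a classic or an alternative arm. In the classic arm Cyp7a1 adds a hydroxyl group to carbon 7 of cholesterol, the rate-limiting step, and Cyp8b1 later adds the 12-hydroxyl that directs the product to cholic acid. In the alternative arm Cyp27a1, a mitochondrial enzyme, oxidises the side chain, and Cyp7b1 adds the 7-hydroxyl to the resulting oxysterols, while Cyp39a1 does so for 24-hydroxycholesterol. Both arms then use Hsd3b7 and Akr1d1, which alter the steroid ring, Amacr, which acts in side chain shortening, and Slc27a5 and Baat, which join bile acids to coenzyme A and then to taurine or glycine. Bile acids returning to the liver act through the nuclear receptor FXR (Nr1h4) and its target SHP (Nr0b2), which lowers the activity of LRH-1 (Nr5a2) and HNF4A on Cyp7a1 and Cyp8b1.

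Sequence just upstream of the start site was held for 4 of the 10 genes in the RefSeq promoter table (build GRCm38.p6). These 4 are shown because they were the ones held, not for their change with LPS. In the test over all libraries 3 of the 4, Cyp8b1, Cyp27a1 and Hsd3b7, were lower after LPS, and the fourth, Akr1d1, was not. The letters CAAGG were searched because LRH-1 binds sites that hold them. Each line is 150 bases read 5′ to 3′ on the gene's strand and ends at the base before the start site of the RefSeq table. The GENCODE gene start printed further on lies a few bases inside the Hsd3b7 stretch and past the end of the Cyp27a1 stretch. Capitals mark CAAGG, or CCTTG where it lies on the other strand.
Cyp8b1 (chr9:121916306-121916455, minus strand): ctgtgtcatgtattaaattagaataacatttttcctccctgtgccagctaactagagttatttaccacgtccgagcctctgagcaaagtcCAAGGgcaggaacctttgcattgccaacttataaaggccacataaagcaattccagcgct
Cyp27a1 (chr1:74713385-74713534, plus strand): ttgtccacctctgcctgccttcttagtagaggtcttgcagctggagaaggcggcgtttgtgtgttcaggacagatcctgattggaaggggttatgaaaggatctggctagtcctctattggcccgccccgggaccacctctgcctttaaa
Hsd3b7 (chr7:127800459-127800608, plus strand): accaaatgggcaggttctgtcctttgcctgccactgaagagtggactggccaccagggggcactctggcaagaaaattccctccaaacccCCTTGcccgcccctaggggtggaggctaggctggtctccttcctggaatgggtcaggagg
Akr1d1 (chr6:37530023-37530172, plus strand): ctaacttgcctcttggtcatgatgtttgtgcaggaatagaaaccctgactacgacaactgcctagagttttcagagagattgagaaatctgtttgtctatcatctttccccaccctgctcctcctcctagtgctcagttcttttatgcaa
CAAGG stood in the Cyp8b1 stretch as printed and in the Hsd3b7 stretch on the other strand, in both at positions -60 to -56 from the RefSeq start. The Cyp27a1 and Akr1d1 stretches did not hold these letters. The core AGGTCA, which many nuclear receptors bind and which can share the letters AGG with CAAGG, was on neither strand of any of the 4. Of 32851 promoters cut to the same length, 30.4% held CAAGG on either strand and 8.58% held AGGTCA. These are matches of letters and do not show that a factor binds there.

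Values are FPKM, a fragment level corrected for transcript length and library size. The library sums ran from 500765 to 580051 FPKM in the untreated groups and from 406668 to 469644 with LPS, and the read depth is unknown. Of 10 hepatocyte markers with their own row, 3 fell and 1 rose with LPS averaged over genotypes. The averaged change was below 0 for 8 and above 0 for 2, with a median of -0.40 against -0.06 over all features. Their summed level was 28563 to 36963 FPKM in untreated WT and 26917 to 27147 in WT with LPS. In TG it was 24556 to 29446 untreated and 26328 to 28387 with LPS. Within this sum Hpx read 1856 to 2439 FPKM untreated and 5402 to 6797 with LPS. Alb, a defining hepatocyte gene, had no row with a value above 0. Markers of some other cells rose with LPS averaged over genotypes: 8 of 9 macrophage markers (summed level 73.0 to 144 FPKM untreated, 997 to 1201 with LPS) and 5 of 5 neutrophil markers (3.65 to 8.65 untreated, 174 to 344 with LPS). Plasma cell (4 of 4), stellate (7 of 7) and endothelial markers (5 of 6) rose as well, but 0 of 4 cholangiocyte markers did. Over all features 20.6% were called higher and 15.8% lower. Pancreatic acinar markers summed to 51.3 to 3803 FPKM untreated and 2.34 to 133 with LPS, and 6 of 7 fell. In whole tissue, fewer hepatocytes and less RNA per hepatocyte cannot be told apart, and the part of these shifts in the results below was not tested. Changes and their standard errors (SE) are in log2(FPKM + 1) from 1 limma model over all 8 libraries. Its p-values are 2-sided and adjusted by Benjamini-Hochberg over the 11463 features tested, a call being an adjusted p under 0.05.

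**Figure D1:**
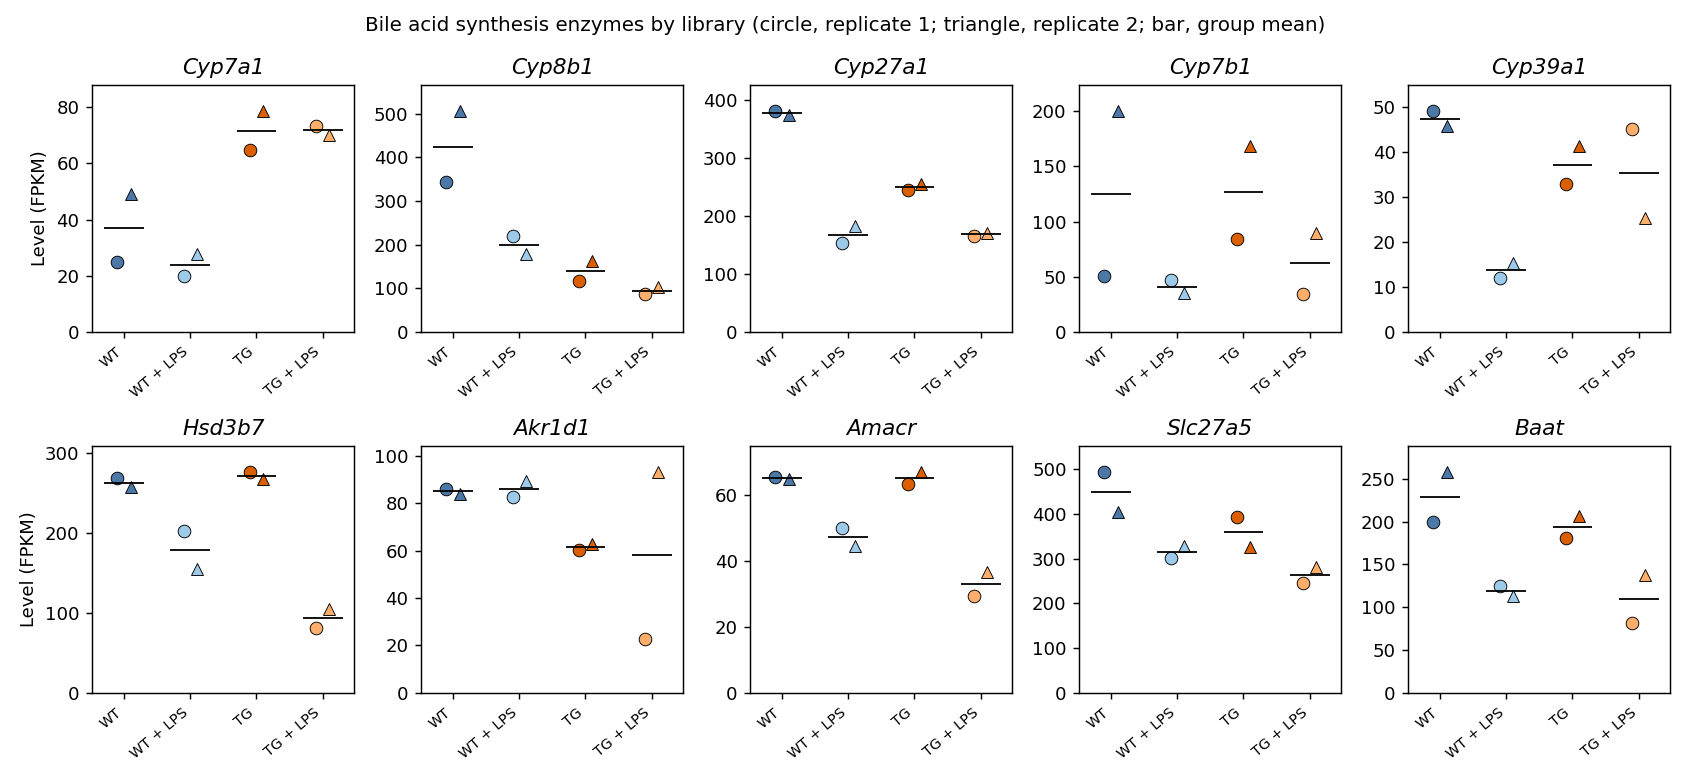
Level of each enzyme in FPKM (vertical axes, each from 0) in the 8 libraries by group, circles for replicate 1, triangles for replicate 2 and bars for the group mean. The 4 TG points of Cyp7a1 lie above all WT points and the 4 TG points of Cyp8b1 below them; replicate 1 of TG with LPS is far below its partner for Akr1d1.

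In untreated WT liver the levels of the 10 genes ran from 449.6 ± 62.8 FPKM (SD, n = 2) for Slc27a5 down to 37.0 ± 17.1 for Cyp7a1. Between them came Cyp8b1 at 424 ± 115, Cyp27a1 at 377 ± 4.55, Hsd3b7 at 263 ± 7.72 and Baat at 229 ± 41.4. Lower still were Cyp7b1 at 125 ± 105, Akr1d1 at 85.1 ± 1.46, Amacr at 65.0 ± 0.462 and Cyp39a1 at 47.3 ± 2.31. Neighbours in this order whose libraries did not overlap were Cyp27a1 and Hsd3b7, Akr1d1 and Amacr, and Amacr and Cyp39a1. All other neighbours overlapped. The rate-limiting enzyme of the classic arm was thus among the lowest of the set and its 12-hydroxylase among the highest.

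Cyp7a1 (chr4:6265612-6275633, minus strand, GRCm38), the gene the transgene carries, was higher in every TG library than in every WT library. It stood at 24.9 and 49.1 FPKM in untreated WT, 19.9 and 27.9 in WT with LPS, 64.7 and 78.5 in untreated TG, and 73.5 and 70.2 in TG with LPS. The ratio of group means, TG to WT, was 1.93 untreated and 3.01 with LPS. Averaged over treatments the difference was 1.29 log2 (SE 0.22), with an unadjusted p of 0.000456 and an adjusted p of 0.127 in limma. The genotype label is thus matched by the direction in 4 of 4 TG libraries, but the difference did not pass the adjusted threshold. Whether reads of the transgene count in this row is not given in the sources used here.

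LPS left Cyp7a1 where the replicates could not separate it. In WT the groups overlapped and the change was -0.55 (SE 0.31, limma adjusted p 0.240), and in TG it was 0.01 (SE 0.31, limma adjusted p 0.984). Averaged over genotypes it was -0.27 (SE 0.22, limma adjusted p 0.363). The untreated WT pair differed 1.97-fold. Without its replicate 1 the changes were -1.03 in WT (limma adjusted p 0.0201) and -0.51 averaged (limma adjusted p 0.0353), so this call turns on 1 library.

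Cyp8b1 (chr9:121914356-121916305, minus strand), the 12-hydroxylase, was lower in TG than in WT and lower with LPS. Its levels were 343 and 505 FPKM in untreated WT, 221 and 179 in WT with LPS, 116 and 162 in untreated TG, and 86.1 and 102 in TG with LPS. All 4 TG libraries lay below all 4 WT libraries, and within each genotype both LPS libraries lay below both untreated ones. The genotype difference averaged over treatments was -1.34 (SE 0.18, unadjusted p 9.815e-05, adjusted p 0.0604 in limma), just short of the threshold. Over the refits of this value it ran from -1.47 to -1.20, and only without replicate 2 of TG with LPS was it called (-1.40, limma adjusted p 0.0305).

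With repeated LPS Cyp8b1 fell by 1.06 in WT (SE 0.25, limma adjusted p 0.0223), while the TG change of -0.55 (SE 0.25, limma adjusted p 0.153) was not called. Averaged over genotypes Cyp8b1 fell by 0.80 (SE 0.18, limma adjusted p 0.0108). The WT call was lost without replicate 2 of untreated WT or either WT library with LPS (-1.21 to -0.78, limma adjusted p 0.0734 to 0.158), after rescaling to the same FPKM sum or quantile normalization (-0.81 and -0.80), and on the hepatocyte-marker scale described below (-0.55, limma adjusted p 0.188). The averaged call was lost without replicate 2 of WT with LPS (-0.73, limma adjusted p 0.0523), after quantile normalization (-0.49) and on the hepatocyte-marker scale (-0.48, limma adjusted p 0.112).

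Cyp27a1 (chr1:74713574-74737892, plus strand), the mitochondrial enzyme that opens the alternative arm, fell with LPS in both genotypes. It stood at 379.7 and 373 FPKM in untreated WT, 153 and 182 in WT with LPS, 245 and 254 in untreated TG, and 166 and 171 in TG with LPS. All 4 LPS libraries were below all 4 untreated ones, and replicates were close, with untreated TG between untreated WT and the LPS groups. The change was -1.17 in WT (SE 0.16, limma adjusted p 0.00163), and the averaged change was -0.87 (SE 0.11, limma adjusted p 0.000776). The TG change was -0.57 (SE 0.16, limma adjusted p 0.0358). That TG call was lost without either library of WT with LPS, either of untreated TG, or replicate 1 of TG with LPS (limma adjusted p 0.0759 to 0.189). It was lost as well under rescaling (-0.35), median-of-ratios scaling (-0.47), quantile normalization (-0.27), the hepatocyte-marker scale (-0.43) and a fit of the compared groups alone, so in 10 of 19 refits.

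Cyp7b1 (chr3:18071950-18243338, minus strand), the oxysterol 7-hydroxylase, had the largest standard errors of the 10 enzymes. It read 50.8 and 199.8 FPKM in untreated WT, 46.7 and 34.9 in WT with LPS, 84.2 and 168 in untreated TG, and 34.6 and 90.1 in TG with LPS. The higher library of a pair was up to 3.93 times the lower, and LPS and untreated groups overlapped when all 8 libraries were set together. Its changes with LPS were -1.30 in WT (SE 0.68, limma adjusted p 0.215), -1.08 in TG (SE 0.68, limma adjusted p 0.280) and -1.19 averaged (SE 0.48, limma adjusted p 0.0906). Without replicate 1 of untreated WT the WT change was -2.28 (limma adjusted p 0.0343) and the averaged change -1.68 (limma adjusted p 0.0166).

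Cyp7b1 is known to be expressed more in male than in female liver, and its level was set beside that of other such genes. Over the 8 libraries the Pearson r of its level in log2(FPKM + 1) was 0.953 with Ugt2b38, 0.908 with Mup20, 0.896 with Selenbp2 and 0.343 with Susd4, the highest 3 and the lowest over 8 genes of a list known to be higher in male liver. These libraries share treatment and scaling, so the r is a description. It takes in the fall with LPS as well as the spread between replicates. Zmpste24, which is not on that list, had an r of 0.986 with Cyp7b1. In untreated WT, Mup20, a urinary pheromone carrier, read 631 and 3046.5 FPKM and Selenbp2 19.9 and 101, each lower in the same library as Cyp7b1. Of these 8 genes, 7 (87.5%) fell with LPS averaged over genotypes, against 15.8% of all features. The falls were led by Elovl3 at -2.69, Mup20 at -2.48, Selenbp2 at -2.30 and Ugt2b38 at -1.62 (limma adjusted p 0.000823 to 0.0170). The median change was -1.40 against -0.06 over all features. The list held 12 genes, of which Cyp4a12a, Cyp4a12b, Cyp2d9 and Hsd3b5 were not tested because each shared a row with other names.

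Cyp39a1 (chr17:43667425-43751431, plus strand), the 24-hydroxycholesterol 7-hydroxylase, fell with LPS in WT and stayed within its replicate spread in TG. Its levels were 48.9 and 45.6 FPKM in untreated WT, 12.0 and 15.3 in WT with LPS, 32.8 and 41.2 in untreated TG, and 45.0 and 25.3 in TG with LPS. The WT groups were far apart, whereas the TG libraries with LPS lay on either side of the untreated ones. The WT change was -1.73 (SE 0.27, limma adjusted p 0.00325), the TG change -0.12 (SE 0.27, limma adjusted p 0.782) and the averaged change -0.92 (SE 0.19, limma adjusted p 0.00757). The difference between these LPS changes was tested as an interaction and was 1.61 (SE 0.38, unadjusted p 0.00327, limma adjusted p 0.375), which was not called. It was called without replicate 2 of TG with LPS (2.01, limma adjusted p 0.0218), which leaves 1 library in that group.

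Hsd3b7 (chr7:127800604-127803802, plus strand), which oxidises the 3-hydroxyl early in both arms, was lower in all 4 LPS libraries than in all 4 untreated ones. It read 269 and 258 FPKM in untreated WT, 203 and 155 in WT with LPS, 276 and 267 in untreated TG, and 80.9 and 105 in TG with LPS. The lowest pair was TG with LPS, and the untreated groups of both genotypes lay close together. The changes were -0.56 in WT (SE 0.20, limma adjusted p 0.0838), -1.55 in TG (SE 0.20, limma adjusted p 0.00150) and -1.06 averaged (SE 0.14, limma adjusted p 0.000898). Without either library of TG with LPS the WT change of -0.56 was called (limma adjusted p 0.0474 and 0.0475). The interaction of -0.98 (SE 0.28, limma adjusted p 0.418) was not called. In the GENCODE annotation the gene overlaps Gm49388 on its own strand and 9430064I24Rik on the other, and the strand setting of the authors' quantification is not given in the sources used here.

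Akr1d1 (chr6:37530173-37568815, plus strand), the steroid 5-beta-reductase, showed no common response, and 1 library decided its value. It stood at 86.1 and 84.1 FPKM in untreated WT, 82.8 and 89.6 in WT with LPS, 60.2 and 62.9 in untreated TG, and 22.8 and 93.2 in TG with LPS. The last pair spanned all other libraries. The changes with LPS were 0.02 in WT (SE 0.53, limma adjusted p 0.985) and -0.40 in TG (SE 0.53, limma adjusted p 0.613). Without replicate 1 of TG with LPS the TG change was 0.59 (limma adjusted p 0.0463), and without replicate 2 it was -1.39 (limma adjusted p 0.00190), so its sign turns on which library is kept. The averaged change was -0.19 (SE 0.37, limma adjusted p 0.714), and -0.69 (limma adjusted p 0.00218) without that replicate 2.

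Amacr (chr15:10981756-10996626, plus strand), the racemase that readies the side chain for peroxisomal shortening, was lower in every LPS library than in every untreated one. Its levels were 65.4 and 64.7 FPKM in untreated WT, 50.0 and 44.5 in WT with LPS, 63.1 and 66.8 in untreated TG, and 29.3 and 36.7 in TG with LPS. Untreated libraries of both genotypes sat within a narrow band, and the TG libraries with LPS were the lowest. The changes were -0.45 in WT (SE 0.16, limma adjusted p 0.0832), -0.96 in TG (SE 0.16, limma adjusted p 0.00467) and -0.71 averaged (SE 0.11, limma adjusted p 0.00219). The WT change was called without either library of TG with LPS (limma adjusted p 0.0439 and 0.0444). The averaged call was lost on the hepatocyte-marker scale (-0.39, limma adjusted p 0.0511).

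Slc27a5 (chr7:12988346-12998192, minus strand), the bile acid coenzyme A ligase, read 494 and 405 FPKM in untreated WT, 301 and 328 in WT with LPS, 393 and 327 in untreated TG, and 246 and 283 in TG with LPS. LPS libraries were lower within each genotype, and 1 untreated TG library matched 1 WT library with LPS. The change was -0.51 in WT (SE 0.19, limma adjusted p 0.0962) and -0.44 in TG (SE 0.19, limma adjusted p 0.125), and only the averaged fall of 0.47 was called (SE 0.13, limma adjusted p 0.0270). That call was lost without either WT library with LPS, either untreated TG library or replicate 1 of TG with LPS (limma adjusted p 0.0506 to 0.116), after rescaling (-0.24) or quantile normalization (-0.20), and on the hepatocyte-marker scale (-0.15).

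Baat (chr4:49489422-49506557, minus strand), which conjugates bile acids to taurine or glycine, was lower in all 4 LPS libraries than in all 4 untreated ones. It read 199 and 258 FPKM in untreated WT, 124 and 113 in WT with LPS, 181 and 207 in untreated TG, and 81.8 and 138 in TG with LPS. The groups did not overlap, though the TG pair with LPS was wide. The changes were -0.93 in WT (SE 0.26, limma adjusted p 0.0411), -0.86 in TG (SE 0.26, limma adjusted p 0.0460) and -0.90 averaged (SE 0.18, limma adjusted p 0.00756). The WT call was lost without replicate 2 of untreated WT, either WT library with LPS or either untreated TG library (limma adjusted p 0.0698 to 0.206), and by filter or scaling choices in 5 more of the 19 refits, down to -0.41 on the hepatocyte-marker scale. The TG call was lost without either library of WT with LPS, either of untreated TG, or replicate 1 of TG with LPS (limma adjusted p 0.0854 to 0.207), and in 12 of 19 refits in all, with -0.51 after quantile normalization. The averaged call was lost on the hepatocyte-marker scale (-0.57, limma adjusted p 0.0579).

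**Figure D2:**
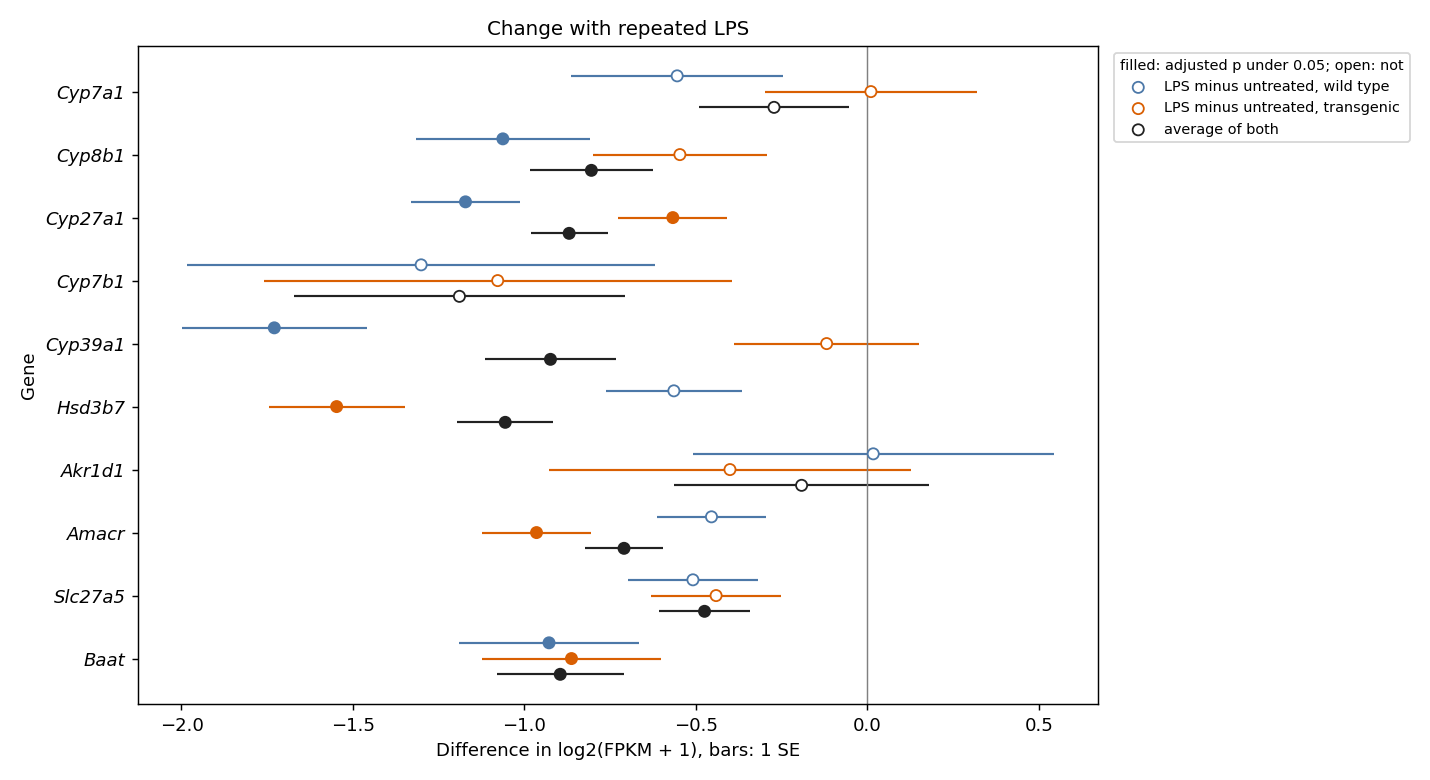
Change with LPS in log2(FPKM + 1) (horizontal axis, bars 1 SE) for each enzyme in WT, in TG and averaged, filled where the limma adjusted p was under 0.05. All averaged points are below 0, 7 of them filled, and the WT and TG points of Cyp39a1 and of Hsd3b7 are the farthest apart.

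With LPS, 0 of the 10 enzymes were called higher by limma in WT, in TG or averaged. In WT, 4 of 10 were called lower (Cyp8b1, Cyp27a1, Cyp39a1 and Baat) and 6 did not pass, where 5.41% of all features tested were called lower by limma. In TG, 4 of 10 were called lower (Cyp27a1, Hsd3b7, Amacr and Baat) and 6 did not pass, against 10.5% of all features called lower. Averaged over genotypes, 7 of 10 were called lower, against 15.8% of all features, the exceptions being Cyp7a1, Cyp7b1 and Akr1d1. The median change over the 10 genes was -0.75 in WT, -0.56 in TG and -0.84 averaged, where the medians over all features were -0.05, -0.04 and -0.06. Levels of Cyp27a1, Hsd3b7, Amacr and Baat did not overlap between the 4 LPS and 4 untreated libraries, and this held, lower with LPS, for 16.8% of all features.

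The number of enzymes called depended on the scaling. Scaling each library to the 10 hepatocyte markers, a setting chosen after seeing the data, left 3 of 10 called lower averaged over genotypes, namely Cyp27a1, Cyp39a1 and Hsd3b7. On that scale 3.36% of all features were called lower and their median averaged change was 0.21. On the same scale 2 enzymes were called lower in WT, against 0.393% of all features, and 2 in TG, against 5.72%. Rescaling each library to the same FPKM sum moved the averaged median over all features from -0.06 to 0.15, and 6 enzymes and 5.91% of all features were then called lower averaged. The averaged calls of Cyp27a1, Cyp39a1 and Hsd3b7 held in all 18 refits run.

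**Figure D3:**
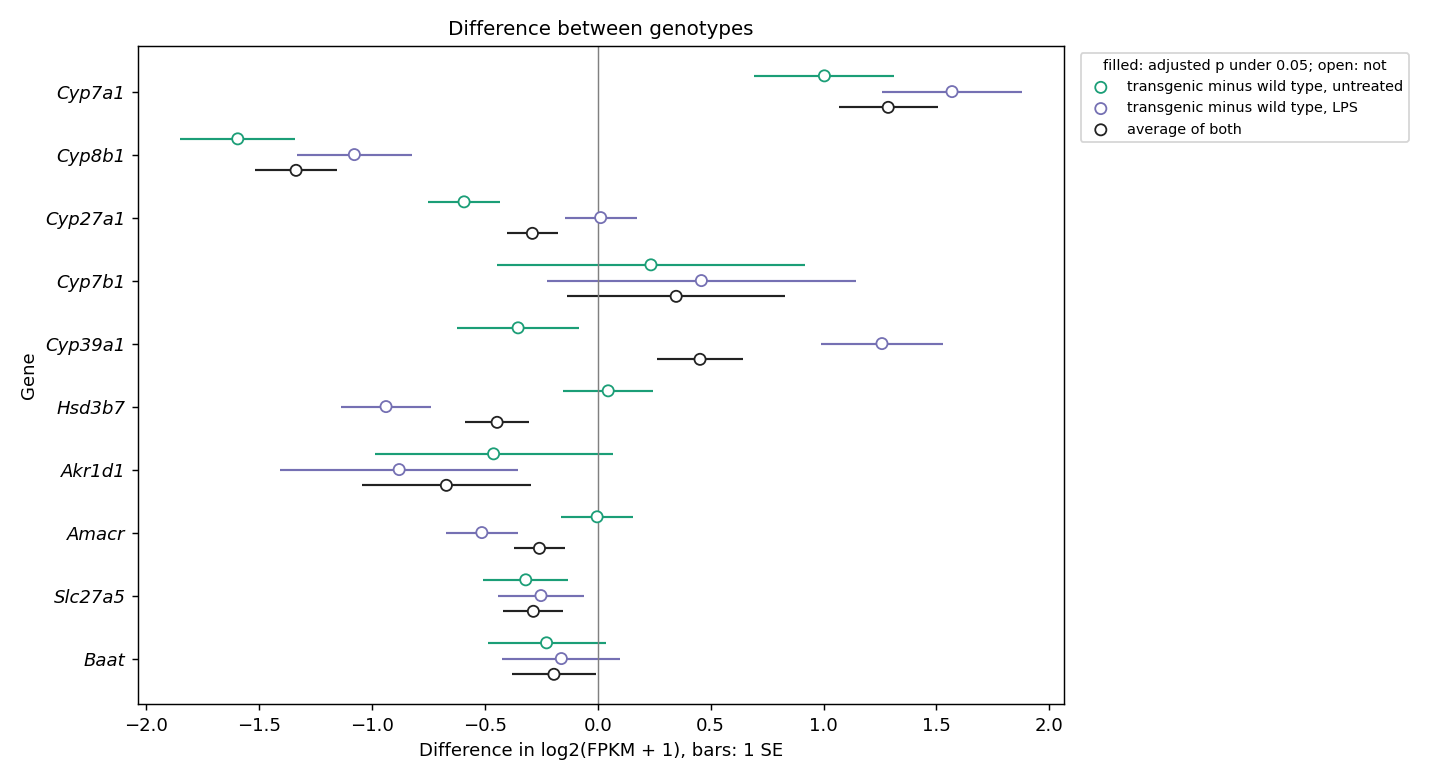
Difference between TG and WT in log2(FPKM + 1) (horizontal axis, bars 1 SE) for each enzyme untreated, with LPS and averaged; every point is open, since no limma adjusted p was under 0.05. Cyp7a1 lies to the right of 0 and Cyp8b1 to the left in all 3 comparisons.

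Between genotypes, limma called 0 of the 10 enzymes. In untreated liver 0.0611% of all features were called, with LPS 0% and averaged over treatments 0.14%. At an unadjusted p under 0.05, untreated liver had 3 of 10 enzymes against 5.5% of all features: Cyp8b1 at -1.59 (limma adjusted p 0.152), Cyp7a1 at 1.00 (limma adjusted p 0.680) and Cyp27a1 at -0.59 (limma adjusted p 0.544). With LPS there were 5 of 10 against 12.2%: Cyp7a1 at 1.57 (limma adjusted p 0.275), Cyp39a1 at 1.26 (0.281), Cyp8b1 at -1.08 (0.287), Hsd3b7 at -0.94 (0.280) and Amacr at -0.51 (0.348). Averaged there were 5 of 10 against 6.49%, with Cyp27a1 at -0.29, Cyp39a1 at 0.45 and Hsd3b7 at -0.45 beside Cyp7a1 and Cyp8b1.

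Without replicate 2 of TG with LPS, calls between genotypes rose over the whole table. With LPS 3.71% of all features were then called, and 3 enzymes: Cyp39a1 at 1.66 (limma adjusted p 0.0139), Hsd3b7 at -1.13 (limma adjusted p 0.0350) and Akr1d1 at -1.87 (limma adjusted p 0.00391). Averaged over treatments 1.58% of all features were then called, with Cyp8b1 and, at -1.17 (limma adjusted p 0.00555), Akr1d1. Only Cyp7a1 and Cyp8b1 had no overlap between the 4 TG and 4 WT libraries, and 1.74% of all features tested had none. These enzymes of the classic arm stood apart in opposite directions, Cyp7a1 higher and Cyp8b1 lower in TG.

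The LPS change differed between genotypes past the adjusted threshold for 0 of 10 enzymes in limma, and for 0.00872% of all features. At an unadjusted p under 0.05 there were 3 of 10 against 10.4%: Cyp39a1 and Hsd3b7, given above, and Cyp27a1 at 0.60 (SE 0.22, limma adjusted p 0.443). Without replicate 2 of TG with LPS, 2.42% of all features and 2 enzymes were called, Cyp39a1 and Akr1d1, the latter at -1.41 (limma adjusted p 0.0215). So the smaller LPS change of Cyp27a1 and Cyp39a1 in TG, and the larger one of Hsd3b7, are not shown as differences between genotypes at this number of libraries.

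**Figure D4:**
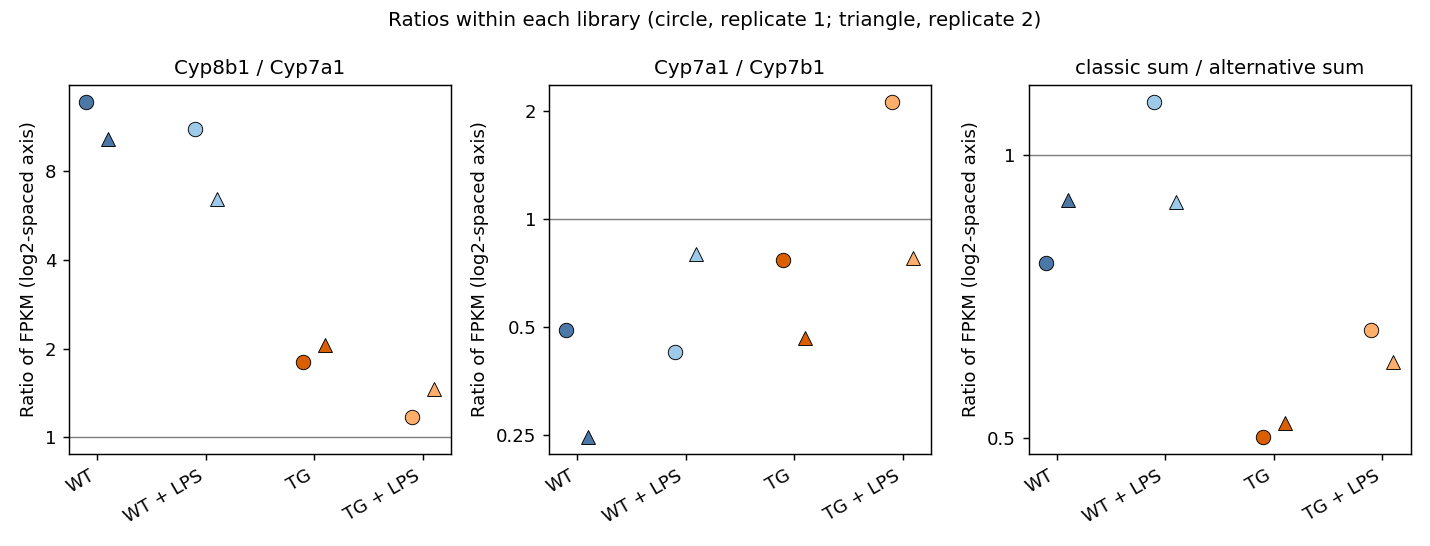
Ratios of FPKM within each library (vertical axes, log2-spaced) by group, circles for replicate 1 and triangles for replicate 2: Cyp8b1 to Cyp7a1, Cyp7a1 to Cyp7b1, and the classic to the alternative sum. The Cyp8b1 to Cyp7a1 ratio separates all TG libraries, from 1.17 to 2.06, from all WT libraries, from 6.42 to 13.8.

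Within the classic arm the balance of Cyp8b1 to Cyp7a1, a ratio of levels per length in the same library, joins the pair of enzymes that had already been seen to separate the genotypes in opposite directions. It was 13.8 and 10.3 in untreated WT, 11.1 and 6.42 in WT with LPS, 1.80 and 2.06 in untreated TG, and 1.17 and 1.45 in TG with LPS. The group means were 12.0 ± 2.47, 8.77 ± 3.32, 1.93 ± 0.186 and 1.31 ± 0.198 (SD, n = 2). LPS and untreated WT libraries overlapped. A ratio within a library is unaffected by the scaling of that library. No p is given, since the ratio is built from the enzymes themselves.

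Between the arms, Cyp27a1 to Cyp7a1 was 15.2 and 7.60 in untreated WT, 7.68 and 6.52 in WT with LPS, 3.78 and 3.24 in untreated TG, and 2.26 and 2.43 in TG with LPS. Every TG library lay below every WT library, but the denominator is Cyp7a1, already seen to separate the genotypes. Levels of Cyp27a1 itself overlapped between genotypes with LPS and over all libraries. In untreated liver they did not, at 379.7 and 373 FPKM in WT and 245 and 254 in TG. The ratio of the competing 7-hydroxylases, Cyp7a1 to Cyp7b1, was 0.490 and 0.246 in untreated WT, 0.425 and 0.799 in WT with LPS, 0.769 and 0.466 in untreated TG, and 2.12 and 0.780 in TG with LPS. Both TG libraries with LPS lay above both untreated libraries of either genotype, though narrowly within TG, at 0.780 against 0.769. All other pairs of groups overlapped. Replicate 1 of TG with LPS was the only library in which Cyp7a1 exceeded Cyp7b1.

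Summed levels of the classic arm (Cyp7a1 and Cyp8b1) were 461 ± 132 FPKM in untreated WT, 224 ± 23.8 in WT with LPS, 211 ± 42.0 in untreated TG and 166 ± 8.92 in TG with LPS. The alternative arm (Cyp27a1, Cyp7b1 and Cyp39a1) summed to 549 ± 98.5, 222 ± 14.7, 413 ± 72.5 and 266 ± 28.7. The shared later steps summed to 1092 ± 31.0, 746 ± 21.7, 953 ± 29.9 and 558 ± 137. All SD are over n = 2. The ratio of the classic to the alternative sum was 0.768 and 0.896 in untreated WT, 1.14 and 0.892 in WT with LPS, 0.501 and 0.518 in untreated TG, and 0.650 and 0.602 in TG with LPS. TG lay below WT in every library on this measure, which Cyp8b1 and Cyp27a1 dominate. With geometric means in place of sums, which weight each enzyme alike, the log2 ratio was -0.01 in untreated WT and -0.06 in untreated TG, so the untreated genotypes did not stand apart on that measure. By those means it was 0.60 in WT with LPS and 0.27 in TG with LPS.

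Other enzymes of bile acid synthesis and handling, a list of 17 with 13 tested, were read the same way. In the averaged comparison 7 fell, 0 rose and 6 did not pass, a share lower of 53.8% against 15.8% of all features, with a median change of -0.60 against -0.06. The changes of 3 of those that did not pass were above 0. In WT 2 fell and in TG 6. The falls with the largest change were those of Akr1c6, an aldo-keto reductase, at -1.15 (SE 0.35, limma adjusted p 0.0373), Scp2, the sterol carrier protein and thiolase of peroxisomal side chain cleavage, at -0.92 (SE 0.15, limma adjusted p 0.00254), Hsd17b4, the peroxisomal multifunctional enzyme, at -0.83 (SE 0.12, limma adjusted p 0.00143), and Abcd3, a peroxisomal membrane transporter, at -0.69 (SE 0.18, limma adjusted p 0.0217). Scp2 read 1000.0 and 1410.1 FPKM in untreated WT, 654 and 601 in WT with LPS, 1164 and 1302 in untreated TG, and 642 and 661 in TG with LPS. Its LPS libraries were all below the untreated ones. The averaged value of Akr1c6 came from TG (-2.08, limma adjusted p 0.0205), where it read 328 and 379.8 FPKM untreated and 44.4 and 153 with LPS, while the WT change was -0.22 (limma adjusted p 0.786). Limma called 0 of the 13 between genotypes averaged over treatments. For the interaction it called 0 of the 13, against 0.00872% of all features, so the LPS change of Akr1c6 is not shown to differ between genotypes.

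Of 16 regulators tested from a list of 19, 3 fell with LPS in the averaged comparison and 0 rose, with a median change of -0.32. The share lower, 18.8%, is near the 15.8% of all features. They were Ppara, the fatty acid sensing receptor, at -0.72 (SE 0.16, limma adjusted p 0.00992), Hnf4a, a hepatocyte master regulator, at -0.58 (SE 0.15, limma adjusted p 0.0191), and Nr5a2 (LRH-1), at -0.51 (SE 0.10, limma adjusted p 0.00556). Nr5a2 read 18.1 and 19.8 FPKM in untreated WT, 12.3 and 13.2 in WT with LPS, 18.4 and 21.3 in untreated TG, and 14.3 and 13.4 in TG with LPS, with no overlap between LPS and untreated libraries. Hnf4a fell in WT (-0.96, limma adjusted p 0.0157) and changed by -0.21 in TG (limma adjusted p 0.512). The interaction was called for 0 of the 16 regulators, against 0.00872% of all features, so these changes are not shown to differ. In TG alone 1 regulator rose, the coactivator Ppargc1a (2.07, limma adjusted p 0.0291), at 1.81 and 1.78 FPKM untreated and 22.9 and 4.73 with LPS, so mostly in replicate 1.

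The bile acid receptor and its target, named here after their values were seen, did not pass in the averaged comparison. Nr1h4 (FXR) changed by -0.48 (SE 0.18, limma adjusted p 0.0753) and Nr0b2 (SHP) by -0.62 (SE 0.37, limma adjusted p 0.218). Nr0b2 stood at 5.33 FPKM in replicate 1 of TG with LPS and 23.6 in replicate 2, so the library that is low in Akr1d1 was low in Nr0b2 as well.

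The lobule and the time of day can also set levels of these enzymes, and lists for both were read. Of 10 pericentral hepatocyte genes tested, 6 (60.0%) fell with LPS averaged over genotypes and 0 rose (median -0.74), led by Tbx3 at -1.26, Cyp1a2 at -1.23, Cyp2e1 at -0.96 and Rhbg at -0.93. Of 10 periportal genes, 3 fell and 1 rose (median -0.11): Cyp2f2 at -0.89, Hsd17b13 at -0.50 and Sdhd at -0.47, and Sds, serine dehydratase, at 0.90. Of 12 clock genes 2 (16.7%) fell, Nr1d1 at -0.73 and Arntl at -0.64, and 0 rose (median -0.07). Over all features 15.8% were called lower, so the clock count is near that share. The limma adjusted p of each gene named in these 3 lists was under 0.05, and the part of zonation and clock phase in the enzymes' changes was not tested.

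Among the enzymes themselves the closest pair over the 8 libraries was Hsd3b7 and Amacr, with a Pearson r of 0.991 in log2(FPKM + 1). The most opposed pair was Cyp7a1 and Cyp8b1, at -0.548. Among 6645 features with a mean of at least 5 FPKM, the gene most like Cyp7a1 was Cxadr (r 0.969), the one most like Cyp8b1 was Morf4l1 (0.962), and the one most like Cyp27a1 was Otulin (0.984). For Cyp7b1 it was Zmpste24 (0.986), for Baat Acsm3 (0.994) and for Amacr Zswim7 (0.997). The libraries share treatment, genotype and scaling, so these values are a description.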

How the data were processed

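Liver RNA of 8 libraries was sequenced from a stranded mRNA kit, per the labels' protocols. The FPKM values were computed by the authors; per the submitters' processing notes they used TopHat2 2.1.0, Bowtie2 2.2.6, Cufflinks and Cuffdiff 2.2.1 with build mm10. The sources used here do not name the annotation, filters or between-library scaling. Depth is unknown and no counting intervals are given.

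The deposited table has 24545 rows. For names on several rows the row with the highest sum was kept, and names with identical values were joined as 1 feature. The 11463 features that reached 1 FPKM in 2 or more libraries were fitted on log2(FPKM + 1) with limma 3.58.1 in R 4.3.3, 1 mean per group, empirical Bayes with trend, 4 residual degrees of freedom and a median of 3.59 prior ones. A fold change on this scale understates the change of low genes. Alternatives changed the pseudocount, filter, scaling, variance model, block or libraries kept.

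The rule for the 10 genes uses no measured value, but the genes, lists, marker sets and arms were chosen with earlier results of these data known. All 10 enzymes are named with their levels and LPS changes, and between genotypes and for the interaction those under an unadjusted p of 0.05. Of each gene list, the called genes with the largest averaged change (at most 4) are named. Gene positions are from GENCODE vM21 on GRCm38, the build of mm10. Replicates are the authors' biological replicates; whether each is 1 animal is not given in the sources used here.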

Additional observations from a re-analysis of the deposited data

How the results depend on the processing

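With 2 libraries a group, p-values rest on 4 residual degrees of freedom shared by all groups. Where a refit leaves out 1 library, the remaining one of its group is assumed to vary like the other groups. Over 946 refits of 51 single-gene values, 862 kept direction and side of the threshold and 51 lost the call. Another 16 gained a call with direction kept, and 17 changed sign, whether called or not. Of the 51 values, 42 never changed sign.

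The count of 4 enzymes called with LPS in WT was 2 after rescaling to an equal FPKM sum, after quantile normalization and on the hepatocyte-marker scale, and 2 to 6 when single libraries were left out. The count of 4 in TG was 2 after rescaling, median-of-ratios scaling, quantile normalization, a fit of only the compared groups, or the hepatocyte-marker scale, and 2 to 5 when single libraries were left out. The averaged count of 7 was 3 on the hepatocyte-marker scale, which was chosen after seeing the data, and 5 to 9 when single libraries were left out. The counts of 0 were 0 to 3 between genotypes with LPS, 0 to 2 averaged over treatments and 0 to 2 for the interaction when single libraries were left out, above 0 only without replicate 2 of TG with LPS. In untreated liver the count was 0 in every refit. The share of all features called lower with LPS moved as well. In WT, 5.41% in the main fit, it was 1.17% after rescaling, 8.67% after quantile normalization and 0.393% on the hepatocyte-marker scale. In TG the main fit had 10.5%. That share was 5.58% after rescaling, 7.61% with median-of-ratios scaling and 11.3% after quantile normalization. It was 6.73% with only the compared groups and 5.72% on the hepatocyte-marker scale. Averaged over genotypes the share was 15.8% in the main fit, 21.4% after quantile normalization and 3.36% on the hepatocyte-marker scale.

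Sign changes were all in values that had not been called. On the hepatocyte-marker scale the change with LPS in WT was 0.05 for Amacr and 0.01 for Slc27a5, that of Cyp39a1 in TG was 0.02, and the averaged changes were 0.05 for Cyp7a1 and 0.13 for Akr1d1. Rescaling to an equal sum gave 0.09 for Cyp39a1 in TG and 0.04 for averaged Akr1d1, and quantile normalization gave 0.10 and 0.03. With single libraries left out, Akr1d1 ranged from -0.04 to 0.07 in WT, Cyp7a1 in TG from -0.13 to 0.15, Cyp39a1 in TG from -0.52 to 0.28, Akr1d1 in TG from -1.39 to 0.59 and averaged from -0.69 to 0.30, and the genotype difference of Cyp7b1 from -0.14 to 0.84. The cause of these shifts was not tested.

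The log2 ratio of classic to alternative sums (-0.27 in untreated WT, 0.01 in WT with LPS, -0.97 in untreated TG, -0.68 in TG with LPS) became -0.01, 0.60, -0.06 and 0.27 with geometric means, which weight low enzymes more. Without 1 library it ran from -0.17 to 0.19 in WT with LPS.

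The labels number the replicates 1 and 2 in each group but do not say that a number marks anything shared. Deviations of same-numbered libraries correlated at 0.043 to 0.459 over features. With the replicate block, 4 enzymes were called with LPS in WT, 4 in TG and 8 averaged, the addition being Cyp7b1 (-1.19, limma adjusted p 0.0338). The shares of all features called lower were then 6.91%, 11.8% and 18%, against 5.41%, 10.5% and 15.8% in the main fit.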

Other observations

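The row of the name Baat that was not kept held 4.24 and 7.77 FPKM in untreated WT, 2.57 and 2.71 in WT with LPS, 4.26 and 5.45 in untreated TG, and 1.78 and 4.04 in TG with LPS. What transcript it stands for is not given in the sources used here. All other enzymes had 1 row. In replicate 1 of TG with LPS, the library that read 22.8 FPKM for Akr1d1, Hsd3b7 at 80.9, Amacr at 29.3, Slc27a5 at 246, Baat at 81.8, Cyp8b1 at 86.1 and Cyp7b1 at 34.6 FPKM were also the lowest of all 8 libraries, as was the sum over all rows, 406668 FPKM. Cyp7a1, Cyp27a1 and Cyp39a1 were not at their lowest there, reading 73.5, 166 and 45.0 FPKM.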
